A study of Mus musculus with 18 samples.

Results

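The transcripts described here belong to 40 genes of mitosis and the kinetochore, a list drawn up by gene symbol that covers CDK1 with its cyclins, the mitotic kinases, the spindle checkpoint, the anaphase-promoting machinery, the kinetochore, spindle motors, cytokinesis and chromosome structure. Each gene was represented by the brightest probe set that the array annotation gives to it alone, by mean log2(signal + 16) over all arrays. Of the 40 genes, 39 had such a probe set and all 39 were above the filter on dim probe sets, among 11238 genes tested in all. Ccnb1, the gene of cyclin B1, was the other gene and was not analysed here. RNA came from preantral to small antral follicles of C57BL/6Ntac mice of 6 to 8 weeks. Follicles of 7 mice made 1 pool, and each pool was divided over drop cultures with AMH, the recombinant anti-Müllerian hormone, at 50 ng/mL, with AMH at 200 ng/mL, or with vehicle (0 ng/mL). Cultures ran for 24 or 12 h, and every culture, vehicle included, also received 80 IU/L of FSH and 10 IU/L of LH. The 6 groups held 3 arrays each, 1 from each of 3 pools per time, which gives 18 arrays in all and limits the precision. A pool mixes the follicles of several mice, and a follicle holds an oocyte, granulosa cells and, around them, theca cells, so each value is an average over cell types.

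At entry into mitosis, CDC25 phosphatases activate CDK1 bound to its cyclins, and the aurora and polo kinases build the spindle. Kinetochore complexes attach chromosomes to microtubules, the checkpoint holds the anaphase-promoting complex until all are attached, and that complex then marks securin and cyclin B for destruction. In growing follicles the dividing cells are mainly granulosa cells, which proliferate under FSH. The oocyte is arrested in meiotic prophase and stores transcripts of many of the same genes for its later meiotic divisions. AMH is a hormone of granulosa cells that acts through its receptor AMHR2 and restrains follicle recruitment and the response to FSH.

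Transcription of many of these genes peaks in G2 and mitosis, and the DREAM and FOXM1-MYBL2 complexes regulate them through a promoter element called the CHR (cell cycle genes homology region), often beside CCAAT boxes bound by NF-Y. The 300-base promoter windows of RefSeq (build GRCm38.p6, 250 bases before to 50 bases after the annotated start) held 34 of the 40 genes. The letters TTTGAA, the usual form of the CHR, were searched on both strands, as were the letters CCAAT, and overlapping matches were each counted. Counts are of genes, and where a gene had several windows a match in any of them counted. TTTGAA was found for 26 of the 34 genes (76.5%), against 20.2% of all 27025 genes in the table. Of the 9127 genes tested on the arrays that had a window, 13.9% had it. For 24 of the 34 genes (70.6%) a TTTGAA began within 50 bases of the start, against 5.72% of all genes. CCAAT was found for 26 genes (76.5%), against 41.1% of all genes. Both motifs shared a window for 23 genes (67.6%), against 7.97%. A match describes these letters and is no evidence of binding. Aurkb, Ccna2, Cdc25c, Kif20a, Smc4 and Tpx2 are named only.

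The windows below are of 5 genes to which the results return, as the member called in the time comparison, members with large differences by time or dose, and Cdk1, the kinase that the other classes act around. They run 5′ to 3′ on the gene's strand, in lower case, with TTTGAA or its reverse complement TTCAAA and CCAAT or its reverse complement ATTGG in capitals. The windows are Cdc20 at chr4:118437294-118437593 on the minus strand, Ube2c at chr2:164769679-164769978 on the plus strand, Cdk1 at chr10:69352863-69353162 on the minus strand, Ncapg at chr5:45669675-45669974 on the plus strand and Cenpf at chr1:189688037-189688336 on the minus strand.
Cdc20: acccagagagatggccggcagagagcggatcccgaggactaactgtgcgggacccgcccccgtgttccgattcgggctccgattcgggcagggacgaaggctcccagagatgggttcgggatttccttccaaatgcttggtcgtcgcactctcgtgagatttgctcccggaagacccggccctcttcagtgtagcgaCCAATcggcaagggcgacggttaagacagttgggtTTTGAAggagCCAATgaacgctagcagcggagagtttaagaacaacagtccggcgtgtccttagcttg
Ube2c: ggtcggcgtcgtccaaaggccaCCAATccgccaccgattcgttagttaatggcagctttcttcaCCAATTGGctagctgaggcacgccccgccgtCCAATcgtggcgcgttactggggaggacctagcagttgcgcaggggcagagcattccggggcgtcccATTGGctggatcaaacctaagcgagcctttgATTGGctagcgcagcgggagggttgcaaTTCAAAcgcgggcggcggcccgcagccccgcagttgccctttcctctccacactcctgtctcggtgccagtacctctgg
Cdk1: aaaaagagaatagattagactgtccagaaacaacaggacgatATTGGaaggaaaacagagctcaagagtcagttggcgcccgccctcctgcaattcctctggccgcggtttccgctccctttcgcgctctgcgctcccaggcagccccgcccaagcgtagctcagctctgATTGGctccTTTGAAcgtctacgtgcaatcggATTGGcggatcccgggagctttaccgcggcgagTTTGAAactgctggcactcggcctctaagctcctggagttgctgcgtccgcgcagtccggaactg
Ncapg: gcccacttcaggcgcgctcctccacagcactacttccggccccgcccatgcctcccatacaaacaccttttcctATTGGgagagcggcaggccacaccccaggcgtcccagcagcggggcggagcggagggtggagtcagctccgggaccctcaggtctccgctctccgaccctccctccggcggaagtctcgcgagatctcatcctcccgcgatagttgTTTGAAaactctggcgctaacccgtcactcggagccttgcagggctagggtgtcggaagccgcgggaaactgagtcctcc
Cenpf: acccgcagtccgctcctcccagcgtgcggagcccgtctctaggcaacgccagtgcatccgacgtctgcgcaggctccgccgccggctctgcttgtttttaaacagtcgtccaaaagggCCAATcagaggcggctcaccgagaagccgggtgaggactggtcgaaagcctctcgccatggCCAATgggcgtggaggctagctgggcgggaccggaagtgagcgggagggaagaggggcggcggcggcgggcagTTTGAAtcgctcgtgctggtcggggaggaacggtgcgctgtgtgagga

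In the window of Cdc20 the TTTGAA began at base -18 from the start, with a CCAAT at base -53 and another at base -8. The window of Ube2c held 1 TTTGAA, on the opposite strand from base -29, and 6 CCAAT, of which the run CCAATTGG from base -186 holds 2 on opposite strands. Cdk1 had TTTGAA from bases -71 and -15, and Cenpf had it from base 3, just past the start. Among the 80 other mitosis genes of a second list, 53.7% of the 67 genes with a window had TTTGAA. Of 42 DNA replication genes, which act in S phase, 32 had a window, and 15.6% of these had TTTGAA and 59.4% had CCAAT.

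One array stood apart and is given on its own near the end: the third pool with 50 ng/mL of AMH at 12 h. Across probe sets its Pearson correlation with the other arrays was 0.604 to 0.624, against 0.904 to 0.992 among the other 17, and the spiked bacterial transcripts averaged a signal of 32128 on it, against 1582 to 3879 on the others. The 17 other arrays entered the fits. The AMH 200 ng/mL array of the same pool correlated least with the rest of the 17 (median 0.92). Pools also differed in oocyte marker signal. The summed signal of 17 oocyte markers was 1375 to 5603 with 50 ng/mL, 2025 to 8283 with 200 ng/mL and 2137 to 9297 with vehicle at 24 h. At 12 h it was 3052 and 8627 with 50 ng/mL, 1135 to 12080 with 200 ng/mL and 670 to 12463 with vehicle, and the low values at 12 h were those of pool 3. No marker was at 0, but in pool 3 at 12 h the egg coat gene Zp3 had signals of 8.22 with 200 ng/mL and 41.9 with vehicle, where the array medians were 18.0 and 23.1. Granulosa markers were measured on every array, with summed signals of 6150 to 15879 over 13 genes on the 17 arrays. In such bulk samples fewer cells of a type and less RNA per cell cannot be told apart.

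**Figure D1:**
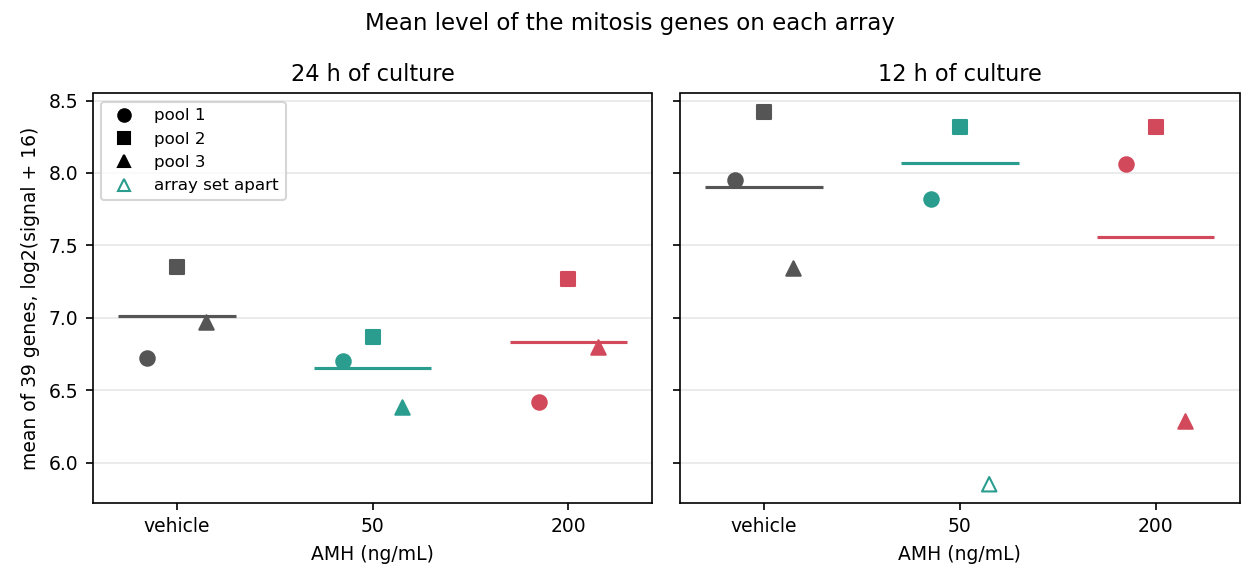
Mean of log2(signal + 16) over the 39 mitosis genes on each array, at 24 h (left) and 12 h (right), by AMH dose in ng/mL; marker shape gives the pool, bars give group means without the array set apart (hollow). The arrays of 24 h lie between 6.38 and 7.35, and those of 12 h other than the 2 AMH arrays of pool 3 lie between 7.34 and 8.42.

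The largest difference in these genes lay between culture times. In vehicle cultures, all 39 genes had lower mean levels at 24 h than at 12 h, with a median log2 difference of -0.89 (range -1.39 to -0.17), against -0.0034 over all genes tested. The mean log2 level over the 39 genes was 6.72, 7.35 and 6.97 on the 3 vehicle arrays of 24 h, against 7.95, 8.42 and 7.34 on those of 12 h, so the lowest array of 12 h lay just below the highest of 24 h. The limma fit on the 6 vehicle arrays called 1 of the 39 genes lower after Benjamini-Hochberg adjustment, and called 0.417% of all probe sets lower. At an unadjusted p under 0.05, 27 of the 39 were lower, against 8.98% of all genes. In 19 of the 39 every vehicle array of 24 h was below every one of 12 h, against 12.4% of all genes. The vehicle cultures of 12 and 24 h came from separate pools, so the replicate number does not pair them. A difference between times is also a difference between pools. With the replicate number as a block, the limma fit called 8 genes, namely Aurka, Ccna2, Cdc20, Cdc25c, Hmmr, Kif20a, Mki67 and Ube2c. Without the third vehicle array of 12 h, which had few oocyte transcripts, 17 were called. Without any 1 of the other 5 arrays, none of the 39 was called. Calls over all 22518 probe sets moved too. They were 292 in the main fit, 60 to 680 under other settings, the block included, and 0 to 555 with 1 vehicle array left out.

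Among the genes of CDK1 and its partners, all 4 measured had groups that did not overlap. Cdk1, the kinase that drives entry into mitosis, had signals of 191, 234 and 167 on the vehicle arrays of 24 h, against 350, 391 and 336 on those of 12 h. Every array of 24 h was below every array of 12 h, with a log2 difference of -0.82 (SE 0.18, limma adjusted p = 0.069). Cdc25c, the phosphatase that activates CDK1, had 25.9, 31.5 and 27.4 at 24 h, against 90.2, 157 and 68 at 12 h. This was the largest log2 difference of the list, -1.39 (SE 0.28, limma adjusted p = 0.0577), though the signals of 24 h lie near the array medians of 28.6 to 31.7 and the size depends on the 16 added before the logarithm. With 1 added it was -1.78 and with 50 added it was -0.95. The cyclin genes Ccna2 and Ccnb2 differed by -1.06 (SE 0.30) and -0.89 (SE 0.26).

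The genes of the anaphase-promoting machinery held the member that passed the test. Ube2c, the ubiquitin-conjugating enzyme of the anaphase-promoting complex, had signals of 482, 726 and 557 on the vehicle arrays of 24 h, against 1260, 1721 and 1061 on those of 12 h. It fell by 1.16 on the log2 scale (SE 0.22, limma adjusted p = 0.0482), which is 2.24-fold, and the groups did not overlap. The call sits at the threshold: the adjusted p of the same limma test was 0.0577 with a pseudocount of 1, 0.0878 without a filter, 0.0647 without the intensity trend and 0.278 with all 17 arrays in the fit, over a range of 0.0206 to 0.278 in all alternatives. With 1 vehicle array left out the limma adjusted p was 0.0234 without that of pool 3 at 12 h and 0.0714 to 0.224 without any of the other 5. Cdc20, the activator that brings substrates to the complex, had 138, 271 and 244 at 24 h, against 431, 986 and 442 at 12 h. Its groups did not overlap either, with a log2 difference of -1.38 (SE 0.35, limma adjusted p = 0.0955, and 0.0341 with the replicate block). Espl1, the separase that cuts cohesin, differed by -0.50 (SE 0.46) with overlapping groups.

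The mitotic kinases and their partners were lower at 24 h by a narrow range of log2 values, from -1.13 to -0.81. Aurka, the kinase of centrosomes and spindle poles, and Tpx2, its activator on the spindle, both differed by -1.13. Aurkb, Birc5 and Cdca8, 3 members of the chromosomal passenger complex that corrects attachments at the centromere, differed by -1.04, -0.82 and -0.81. Cdca8, the brightest of this class, had signals of 472, 687 and 553 on the vehicle arrays of 24 h, against 931, 1663 and 648 on those of 12 h, and its groups overlapped through the third array of 12 h. Plk1, the polo kinase, differed by -0.87 (SE 0.29).

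The checkpoint genes had smaller differences, with a median of -0.57 over 4 genes. Mad2l1, whose product binds and holds CDC20, had signals of 159, 217 and 209 on the vehicle arrays of 24 h, against 266, 538 and 221 on those of 12 h. The groups did not overlap but nearly touched, and the log2 difference was -0.67 (SE 0.31, limma adjusted p = 0.295). Bub1b, a second CDC20 inhibitor, and Ttk, the kinase that starts checkpoint signalling, differed by -0.47 (SE 0.41) and -0.46 (SE 0.48), and their groups overlapped. Bub1, a kinase of the outer kinetochore, differed by -0.85 (SE 0.35).

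Of the 5 kinetochore genes, Cenpa alone had groups that did not overlap. Cenpa, the histone H3 variant that marks the centromere, had signals of 65.8, 107 and 77.8 on the vehicle arrays of 24 h, against 177, 181 and 130 on those of 12 h, and a log2 difference of -0.85 (SE 0.23). Ndc80, the microtubule-binding subunit of the outer kinetochore, had 20.8, 50.3 and 21.1 at 24 h, against 83.3, 108 and 45.2 at 12 h. These overlapped in 1 array of each time, with a log2 difference of -1.02 (SE 0.34). Cenpf, a large protein of the outer kinetochore, had 54.1, 117 and 77.8 at 24 h, against 146, 204 and 64.9 at 12 h. The array of 12 h from pool 3 was below 2 of the arrays of 24 h, and the log2 difference was -0.57 (SE 0.39). Cenpe, a kinetochore motor, and Nuf2, the partner of NDC80, differed by -0.93 and -0.68.

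The spindle genes differed by -1.21 to -0.55. Nusap1, which bundles spindle microtubules near chromosomes, had signals of 103, 174 and 144 on the vehicle arrays of 24 h, against 326, 412 and 165 on those of 12 h. The third array of 12 h lay within the range of 24 h, and the log2 difference was -0.96 (SE 0.33). Hmmr, a spindle assembly factor, differed by -1.21, and Kif2c, Kif11 and Kif4, the motors that take apart microtubules at centromeres, push spindle poles apart and act on chromosome arms, differed by -1.13, -0.99 and -0.55. Among the genes of the midzone and cytokinesis, Prc1, which crosslinks midzone microtubules, had 115, 199 and 158 at 24 h, against 314, 504 and 238 at 12 h. Its groups did not overlap (log2 difference -1.05, SE 0.29). Kif20a differed by -1.19, and Kif23 and Racgap1, which together form centralspindlin, differed by -0.90 and -0.86. Anln, a scaffold of the contractile ring, had 76.9, 96.7 and 51.1 at 24 h, against 141, 156 and 95 at 12 h, with groups that just overlapped (log2 difference -0.70, SE 0.27). Ect2, the activator of RhoA at the division site, differed by -0.61 (SE 0.40).

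The chromosome structure genes held both a large difference and the smallest of the list. Ncaph, a condensin I subunit, had signals of 63.3, 73.1 and 76.3 on the vehicle arrays of 24 h, against 171, 314 and 116 on those of 12 h. Its groups were well apart, with a log2 difference of -1.21 (SE 0.32). Smc4, a core condensin subunit, had 764, 780 and 708 at 24 h, against 890, 945 and 722 at 12 h, which overlap, and a log2 difference of -0.17 (SE 0.15). Its partner Smc2 differed by -0.86 (SE 0.22) and did not overlap. Top2a, the topoisomerase that untangles chromosomes, and Mki67, the coat protein used as a marker of dividing cells, differed by -1.04 and -1.0. Ncapg, another condensin I subunit, had 97.6, 223 and 169 at 24 h, against 274, 504 and 136 at 12 h, with overlap and a log2 difference of -0.73 (SE 0.44).

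**Figure D2:**
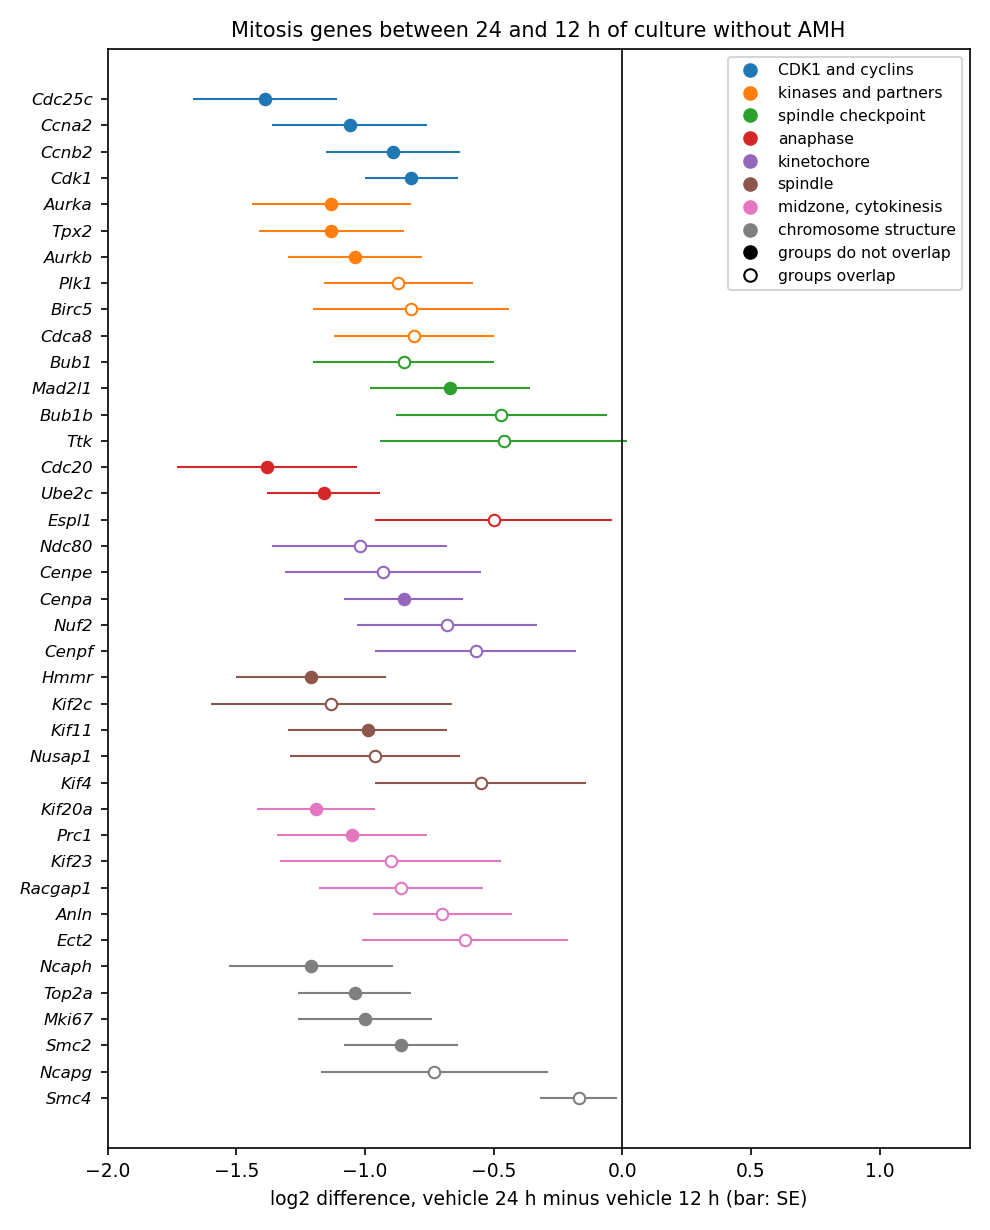
Log2 difference of vehicle cultures, 24 h minus 12 h, for each of the 39 genes, with bars of 1 SE from the limma fit on 6 arrays, coloured by role; filled points are genes whose groups do not overlap. All 39 points lie below 0, from Cdc25c at -1.39 to Smc4 at -0.17.

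Other genes of the cell cycle were also lower at 24 h, by less. Of 69 other mitosis genes tested, 68 had a log2 difference below 0, with a median of -0.55, and the limma test called 2 lower. Of 39 DNA replication genes, 36 were below 0, with a median of -0.45; limma called 0 of them, and 13 had an unadjusted p under 0.05. All 26 further tested probe sets of the 39 members, which belong to 18 genes, had the same sign as the probe set used. In the AMH comparisons below, the sign was the same in 26 of the 26 for 50 ng/mL at 24 h and in 19 for 200 ng/mL at 24 h. At 12 h it was the same in 22 for 50 ng/mL and in 20 for 200 ng/mL, and for 200 minus 50 ng/mL at 24 h in 21. Cell type markers differed beside this. Granulosa markers were above 0 in 12 of 13 genes, with a median of 0.73 and summed signals of 13379 to 14497 at 24 h, against 6336 to 9935 at 12 h, and 2 were called higher, against 0.879% of all probe sets. Endothelial markers were below 0 in 10 of 11 genes, with a median of -0.66 and summed signals of 1125 to 2452 at 24 h, against 1586 to 5908 at 12 h. Theca and interstitial markers were above 0 in 10 of 13 (median 0.37), surface epithelium markers in 8 of 12 (median 0.49, 1 called higher) and leukocyte markers in 8 of 10 (median 0.34, 1 called higher and 1 lower). Oocyte markers had a median of 0.10, with a median SE of 0.98. The third vehicle array of 12 h, with a summed oocyte marker signal of 670, had a mean mitosis level of 7.34, and the second vehicle array of 24 h, with 9297, had 7.35. The part of these cell types in the difference was not tested.

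The next comparisons asked what AMH changed. With 50 ng/mL at 24 h, all 39 genes had a fitted log2 difference from vehicle below 0, with a median of -0.34 (range -0.78 to -0.026), against 0.003 over all genes. The pools were not alike. The median over the 39 genes was -0.0059, -0.48 and -0.57 in pools 1, 2 and 3, and 20, 38 and 39 genes were below 0 in them. In 20 of the 39 every pool was lower, against 11.7% of all genes. After adjustment, limma called 0 of the 39 genes and 0% of probe sets. At an unadjusted p under 0.05, 607 probe sets passed, and 7 of the 39 genes were lower, against 2.74% of all genes. Array weights, which down-weight arrays by their residuals, gave 9 called genes (listed with the alternatives) and 294 called probe sets of 22518. The median was -0.51 without pool 1 and -0.22 without pool 3, and 37 of the 39 genes stayed below 0 with median centring, which moves the median of all genes to 0.11.

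Ncapg had the most even difference. Its signals were 49.1, 127 and 91.5 with 50 ng/mL, against 97.6, 223 and 169 with vehicle, in pools 1, 2 and 3. Each AMH array was below its own vehicle array by a like amount, with log2 differences of -0.80, -0.74 and -0.78, though pool 2 with AMH was above pool 1 with vehicle. The fitted difference was -0.78 (SE 0.15, limma unadjusted p = 0.000234, adjusted p = 1). Cenpf had 22.5, 79.4 and 33.6 with 50 ng/mL, against 54.1, 117 and 77.8 with vehicle. It was lower in every pool, with differences of -0.86, -0.48 and -0.92 and a fitted value of -0.75 (SE 0.32, limma adjusted p = 1).

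Other genes lower in every pool came from several roles. Kif4, the chromosome arm motor, had signals of 25.7, 39.8 and 13.3 with 50 ng/mL, against 33.5, 78.5 and 50.9 with vehicle, and a fitted log2 difference of -0.73 (SE 0.23). Its pool differences ran from -0.25 to -1.19. Espl1 and Ect2 had fitted differences of -0.65 (SE 0.28) and -0.64 (SE 0.25). Anln had 72.8, 65.1 and 29.1 with 50 ng/mL, against 76.9, 96.7 and 51.1 with vehicle, so pool 1 hardly differed (fitted -0.37, SE 0.27). Prc1 showed the same pattern over pools, with 112, 115 and 81.2 against 115, 199 and 158 (fitted -0.53, SE 0.25). Nusap1 had 91.9, 136 and 86.6 with 50 ng/mL, against 103, 174 and 144 with vehicle, lower in every pool (-0.36, SE 0.32). Cdca8 was lower in every pool with 443, 539 and 414, against 472, 687 and 553 (-0.28, SE 0.16). Ncaph, another condensin I gene, had 51.7, 47.5 and 58.5, against 63.3, 73.1 and 76.3, a fitted difference of -0.34 (SE 0.33). Smc4, also lower in all 3 pools, had 636, 744 and 671, against 764, 780 and 708 (-0.13, SE 0.13).

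At 50 ng/mL and 24 h, Ube2c, Cdc20 and Cdc25c, with large time differences, had fitted AMH differences near the median of the list. Ube2c had signals of 598, 532 and 308 with 50 ng/mL, against 482, 726 and 557 with vehicle, higher in pool 1 and lower in the others (fitted -0.32, SE 0.37). Cdc20 had 143, 209 and 162, against 138, 271 and 244 (-0.29, SE 0.25). Cdc25c was lower in every pool, with 14.7, 20.2 and 17.9, against 25.9, 31.5 and 27.4 (-0.40, SE 0.32), and its AMH arrays all lay below the vehicle arrays. Ndc80 had 31.6, 26.5 and 7.26, against 20.8, 50.3 and 21.1, so its pools disagreed in sign (-0.31, SE 0.35). Cenpa had 72.4, 73.3 and 61.5, against 65.8, 107 and 77.8 (-0.21, SE 0.19). Mad2l1 had 190, 168 and 176, against 159, 217 and 209 (-0.11, SE 0.16). Both were higher in pool 1. Cdk1 had 237, 186 and 159 with 50 ng/mL, against 191, 234 and 167 with vehicle, and the smallest fitted difference of the list, -0.026 (SE 0.18).

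**Figure D3:**
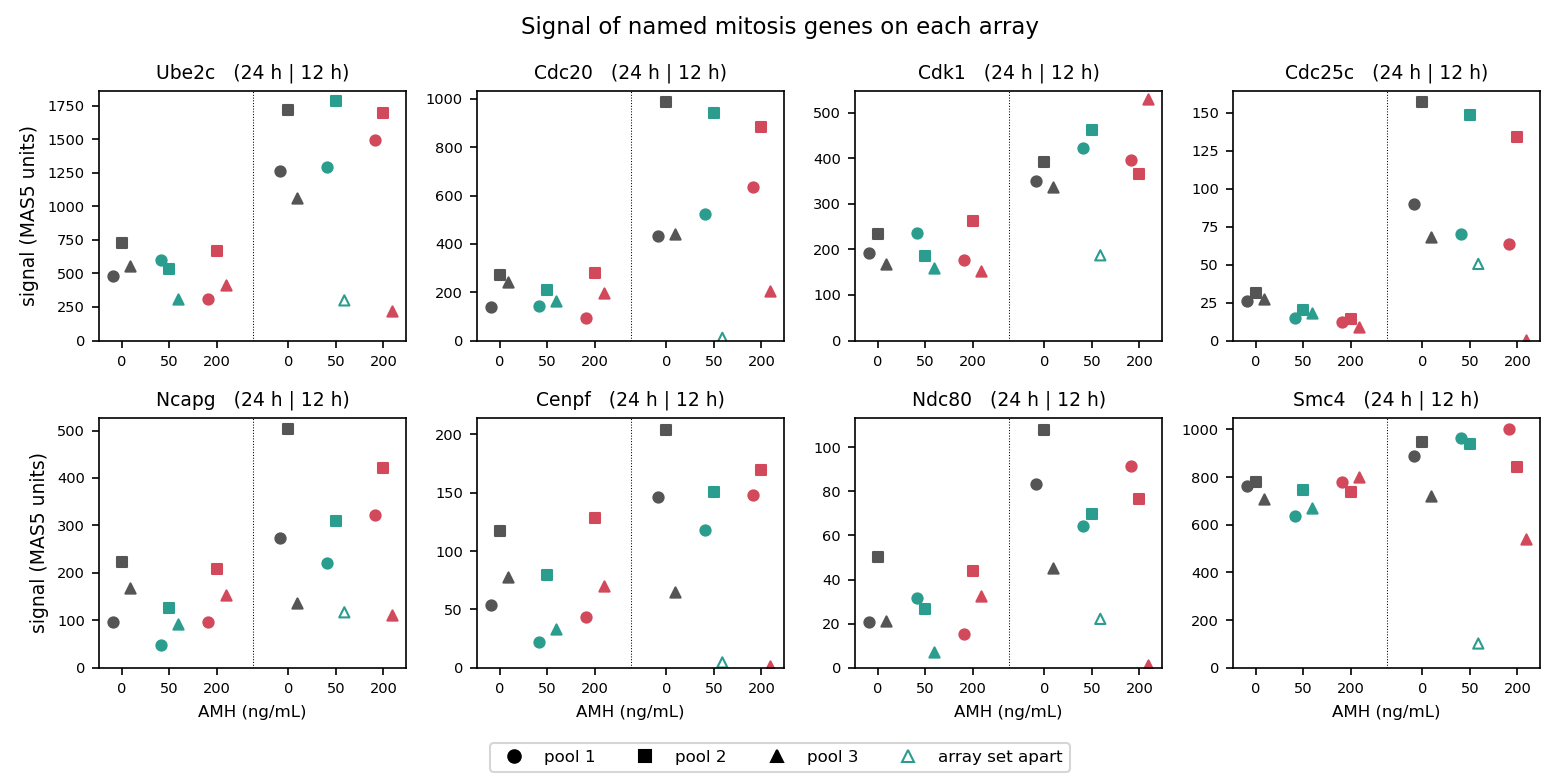
Deposited signal (linear MAS5 units) of 8 mitosis genes on each array, by AMH dose in ng/mL, with 24 h left and 12 h right of the dotted line; marker shape gives the pool and the hollow triangle is the array set apart. Ncapg and Cenpf are lower with 50 ng/mL than with vehicle in every pool of 24 h, and Cdk1 is not.

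All 17 oocyte markers had a fitted difference below 0 with 50 ng/mL at 24 h (median -0.82), and their pool medians were -0.18, -0.68 and -1.57, in the same order as those of the mitosis genes. Zp3 had signals of 88.8, 675 and 52.8 with 50 ng/mL, against 158, 1172 and 625 with vehicle. Surface epithelium markers were below 0 in all 12 genes, with pool medians of -0.22, -1.27 and -0.48 and summed signals of 3837 to 4617, against 4966 to 8743. Leukocyte markers were below 0 in 9 of 10, with pool medians of -1.10, -0.31 and -0.69 and summed signals of 793 to 2014, against 1285 to 2810. Granulosa markers had a fitted median of -0.16, and 11 of 13 were below 0. Their pool medians were -0.15, -0.25 and 0.043, and 2 of the 13 were lower in every pool. Theca and interstitial markers were above 0 in 11 of 13, with pool medians of 0.78, 0.14 and 0.0032, and endothelial markers in 7 of 11. The part of these cell types in the differences of the mitosis genes was not tested. Of the other mitosis genes 57 of 69 were below 0 (median -0.16), and of the DNA replication genes 34 of 39 (median -0.13); limma called 0 in either list, and 3 and 0 had an unadjusted p under 0.05 and lay lower.

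With 200 ng/mL at 24 h the differences were smaller. This comparison shares its vehicle arrays with the one above, so the 2 are not independent. The fitted median was -0.17, with 34 of 39 genes below 0, and the pool medians were -0.30, -0.081 and -0.14. In 17 of the 39 every pool was lower, against 12.7% of all genes, and in 1, Bub1b, every pool was higher. Limma called 0 of the 39 genes and 0% of probe sets; 374 probe sets and 1 of the 39 genes, Hmmr, had an unadjusted p under 0.05, against 1.32% of all genes lower. Oocyte markers had a median of 0.011 here, with 8 of 17 below 0, and granulosa markers were above 0 in 9 of 13 (median 0.13). Surface epithelium markers were below 0 in all 12 (median -0.64), leukocyte markers in 9 of 10 (median -0.85) and theca and interstitial markers in 11 of 13 (median -0.16). The part of these cells was not tested.

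Cdc25c had signals of 12.1, 14.2 and 9.12 with 200 ng/mL, against 25.9, 31.5 and 27.4 with vehicle at 24 h. The groups were apart and each pool was lower, with a fitted log2 difference of -0.67 (SE 0.32, limma adjusted p = 1). All these signals lie near or below the array medians, and with 1 or 50 added in place of 16 the value was -1.21 or -0.34. Anln had 32.6, 68.4 and 45.8 with 200 ng/mL, against 76.9, 96.7 and 51.1 with vehicle. It was lower in every pool, by most in pool 1 (fitted -0.49, SE 0.27, limma adjusted p = 1). Hmmr and Mki67 had fitted differences of -0.46 (SE 0.21) and -0.43 (SE 0.20), each lower in every pool. Ube2c had 308, 666 and 410, against 482, 726 and 557, also lower in every pool (-0.39, SE 0.37).

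The remaining genes named by role had no even difference at 200 ng/mL, or a small one. Cenpa had signals of 53.1, 83.3 and 62.7 with 200 ng/mL, against 65.8, 107 and 77.8 with vehicle at 24 h, lower in every pool (-0.27, SE 0.19). Ncaph was lower in every pool too, with 43.1, 55.5 and 69, against 63.3, 73.1 and 76.3 (-0.29, SE 0.33). Prc1 had 90.6, 190 and 122, against 115, 199 and 158 (-0.23, SE 0.25). Mad2l1 had 153, 205 and 166, against 159, 217 and 209 (-0.14, SE 0.16). Both were lower in every pool, and their fitted differences lay within their SE. Ncapg and Cenpf, the 2 largest differences at 50 ng/mL, had 96.8, 208 and 153 and 43.4, 128 and 70 with 200 ng/mL, with fitted differences of -0.079 (SE 0.15) and -0.084 (SE 0.32). Cdc20 had 91.9, 280 and 197, against 138, 271 and 244 (-0.25, SE 0.25), and Cdca8 had 308, 650 and 577, against 472, 687 and 553 (-0.20, SE 0.16). Pools disagreed in sign for both. Nusap1 with 91, 178 and 145, Ndc80 with 15.5, 43.9 and 32.4, Smc4 with 780, 739 and 798 and Cdk1 with 177, 263 and 153 also had pools of both signs, and fitted differences between -0.037 and 0.041.

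The 2 doses were compared directly at 24 h, 200 minus 50 ng/mL, over arrays that the comparisons above also use. The fitted median over the 39 genes was 0.099, with 30 above 0, and the pool medians were -0.33, 0.41 and 0.43, so pool 1 went the other way. In 4 of the 39 every pool was higher, against 15.1% of all genes: Cenpf, Bub1b, Ttk and Ncapg. Limma called 0 of the 39 and 0% of probe sets; 938 probe sets had an unadjusted p under 0.05, as did Bub1b, Kif4 and Ncapg, all higher, against 3.02% of all genes higher. Ncapg had signals of 96.8, 208 and 153 with 200 ng/mL, against 49.1, 127 and 91.5 with 50 ng/mL. It was higher in every pool, with a fitted difference of 0.70 (SE 0.15, limma adjusted p = 0.999). Cenpf had 43.4, 128 and 70, against 22.5, 79.4 and 33.6 (0.67, SE 0.32), and Bub1b had 124, 370 and 238, against 94.1, 212 and 152 (0.57, SE 0.16). Both were higher in every pool. With median centring the list median was -0.0016 and 20 of the 39 were below 0, and it was 0.36 without pool 1, 0.0014 without pool 2 and 0.016 without pool 3. Oocyte markers were above 0 in all 17 genes (median 0.87), and Zp3 had 181, 1061 and 654 with 200 ng/mL, against 88.8, 675 and 52.8 with 50 ng/mL. Theca and interstitial markers were below 0 in all 13 genes (median -0.55), with pool medians of -1.19, 0.10 and -0.48. The part of these cells was not tested.

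**Figure D4:**
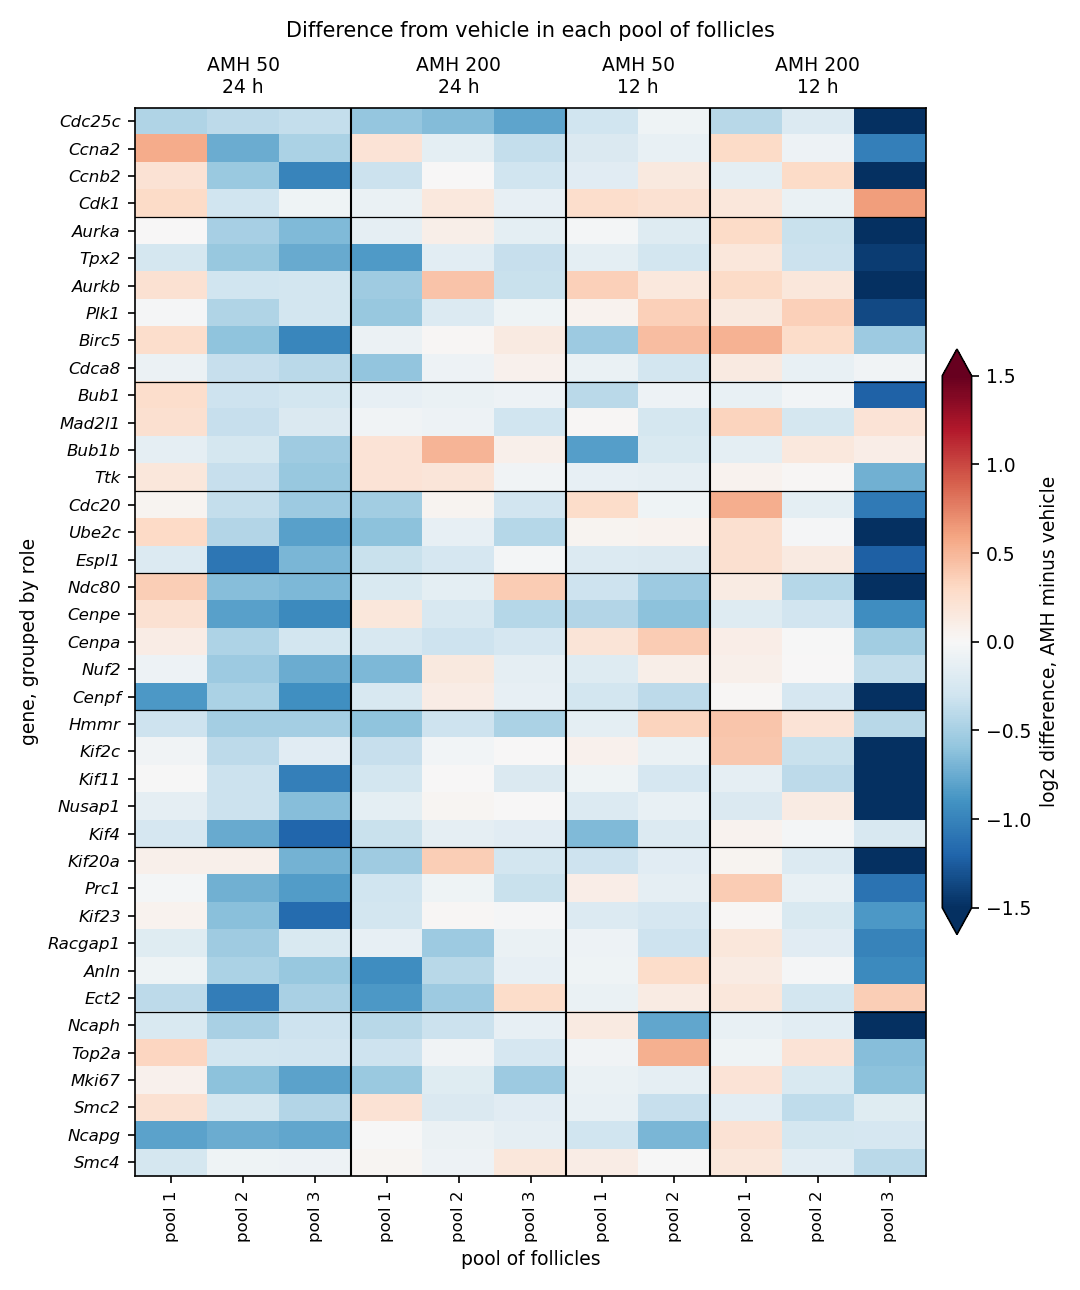
Log2 difference of AMH cultures from the vehicle culture of the same pool for the 39 genes, grouped by role, in 4 comparisons; blue is lower with AMH, red is higher, and the colour scale ends at 1.5 in either direction. At 50 ng/mL and 24 h pools 2 and 3 are blue in nearly all genes and pool 1 is mixed; at 200 ng/mL and 12 h the strong blue lies in pool 3.

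At 12 h, 50 ng/mL could be compared in 2 pools. The pool medians over the 39 genes were -0.11 and -0.13, and 21 of the 39 were lower in both pools, against 27.3% of all genes. The fitted median, -0.35 with 35 genes below 0, was further from 0, since the fit also draws on the AMH 200 ng/mL and vehicle arrays of pool 3; it was -0.13 without that pool and -0.56 with the array set apart included. Without the pool as a block it was 0.14, with 7 of the 39 below 0. Limma called 0 of the 39 and 0% of probe sets, and 1285 probe sets and 3 of the 39 (Cenpe, Bub1b and Ncapg, all lower) had an unadjusted p under 0.05, against 4.1% of all genes lower. Ndc80 had signals of 64.2 and 69.6 with 50 ng/mL, against 83.3 and 108 with vehicle in pools 1 and 2, and log2 differences of -0.31 and -0.54 (fitted -0.70, SE 0.40, limma adjusted p = 0.879). Both AMH arrays were below both vehicle arrays of these pools. Cenpf had 118 and 151, against 146 and 204 (pool differences -0.27 and -0.39, fitted -0.68, SE 0.38), and it became 0.074 without the block. All 17 oocyte markers were lower in both pools, with medians of -1.07 and -0.51. Fitted differences of theca and interstitial markers were below 0 in 10 of 13 (median -0.40), with pool medians of -0.41 and -0.0034. Those of surface epithelium markers were above 0 in all 12 (median 0.44). The pool medians of the latter were 0.20 and 0.23, with 3 and 4 of the 12 below 0. Granulosa markers had fitted differences below 0 in 9 of 13 (median -0.11), with pool medians of -0.027 and -0.041. The part of these cells was not tested.

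The brightest genes of the roles differed in both directions at 50 ng/mL and 12 h in pools 1 and 2. Their log2 differences ran from -0.28 (Cdca8, pool 2) to 0.38 (Cenpa, pool 2). Ube2c had signals of 1295 and 1785 with 50 ng/mL, against 1260 and 1721 with vehicle. Cdk1 had 422 and 462, against 350 and 391, and Cenpa had 204 and 242, against 177 and 181. All 3 were higher in both pools. Cdca8 had 866 and 1366, against 931 and 1663, and Nusap1 had 280 and 380, against 326 and 412, both lower in both pools. Mad2l1 had 270 and 448, against 266 and 538, Prc1 had 338 and 455, against 314 and 504, and Smc4 had 964 and 939, against 890 and 945. These last 3 had pools of opposite sign. Cdc25c had 70.5 and 149, against 90.2 and 157, Anln had 134 and 192, against 141 and 156, and Ncapg had 220 and 309, against 274 and 504. Cdc20 had 524 and 942, against 431 and 986, and Ncaph had 189 and 176, against 171 and 314, with pools of opposite sign.

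With 200 ng/mL at 12 h the list was split by pool. The pool medians were 0.14, -0.11 and -1.0, against 0.0017, 0.011 and -0.22 over all genes, so the low values lay in pool 3. The fitted median was -0.28, with 33 of 39 below 0, and it was 0.012 without pool 3. With array weights it was -0.0087, with 21 of the 39 below 0. In 6 of the 39 every pool was lower, against 13.6% of all genes. Limma called 0 of the 39 and 0% of probe sets; 2565 probe sets had an unadjusted p under 0.05, and so did 6 of the 39, all lower, against 8.15% of all genes.

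Cdc25c had signals of 63.3, 134 and 0.321 with 200 ng/mL, against 90.2, 157 and 68 with vehicle at 12 h. It was lower in every pool, but by -0.42, -0.21 and -2.36, and the fitted difference was -1.0 (SE 0.32, limma adjusted p = 0.432). With 1 or 50 added in place of 16 it was -2.15 or -0.57. Ncaph had 157, 279 and 14.7, against 171, 314 and 116. Its pool differences were -0.11, -0.16 and -2.10 (fitted -0.79, SE 0.33, limma adjusted p = 0.432). In both genes the difference was largest in pool 3.

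The genes brightest in their roles showed the same division at 200 ng/mL and 12 h, with exceptions in pool 3. Ube2c had signals of 1492, 1697 and 220 with 200 ng/mL, against 1260, 1721 and 1061 with vehicle. Nusap1 had 277, 448 and 25.1, against 326, 412 and 165, and Prc1 had 414, 467 and 102, against 314, 504 and 238. All 3 were far lower in pool 3 only. Cenpa had 191, 180 and 85.6, against 177, 181 and 130, and Smc4 had 1003, 844 and 541, against 890, 945 and 722. Cdk1, Mad2l1 and Cdca8 did not share the low values in pool 3. Cdk1 had 397, 365 and 530, against 350, 391 and 336, Mad2l1 had 339, 448 and 256, against 266, 538 and 221, and Cdca8 had 1029, 1541 and 624, against 931, 1663 and 648. Cdk1 was highest in pool 3 with AMH, where most of the list was lowest. Among the large differences by time or dose, Cdc20 had 637, 885 and 204, against 431, 986 and 442, Cenpf had 148, 169 and 1.98, against 146, 204 and 64.9, and Ndc80 had 91.7, 76.5 and 1.18, against 83.3, 108 and 45.2. Anln had 154, 155 and 41.4, against 141, 156 and 95, and Ncapg had 322, 420 and 111, against 274, 504 and 136.

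Markers of other cells also differed with 200 ng/mL at 12 h, and not in pool 3 alone. Surface epithelium markers had medians of 0.41, -0.26 and 1.66 in pools 1, 2 and 3. In pool 3 their summed signal was 17409 with 200 ng/mL, against 6724 with vehicle. Endothelial markers had pool medians of -0.36, 0.80 and -1.83, and theca and interstitial markers 0.046, 0.94 and -0.63. Leukocyte markers had -0.25, 0.74 and -0.16. Oocyte markers, at summed signals of 1135 with 200 ng/mL and 670 with vehicle in pool 3, had a pool median of -0.33. Granulosa markers had pool medians of -0.50, -0.017 and -0.27 in pools 1, 2 and 3, and fitted differences below 0 in 10 of 13 (median -0.27). The part of these cells in the list's values was not tested.

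**Figure D5:**
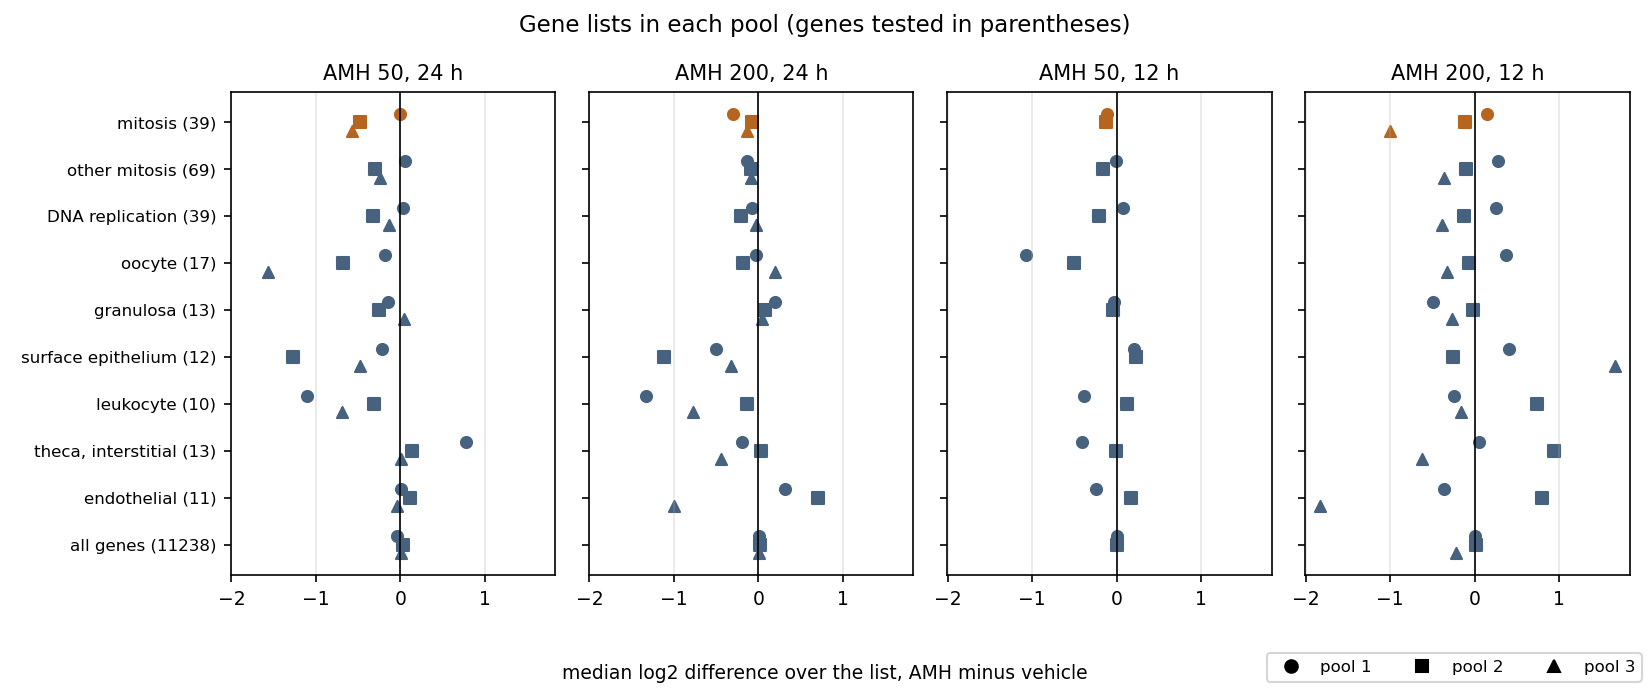
Median log2 difference, AMH minus vehicle of the same pool, of the mitosis genes (orange), 2 further cell cycle lists, 6 lists of cell type markers and all genes tested, in 4 comparisons; marker shape gives the pool. At 50 ng/mL and 24 h the oocyte markers are lowest in pool 3 and least low in pool 1, as the mitosis genes are.

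Whether the AMH differences themselves changed with time was tested as an interaction. For 200 ng/mL the difference at 24 h minus that at 12 h had a median of 0.17 over the 39 genes (0.075 over all genes), which was -0.22 without pool 3 of 12 h. With array weights it was -0.16, with 28 of the 39 below 0. For 50 ng/mL the median was -0.075 (0.035 over all genes). Limma called 0 of the 39 and 0% of probe sets for either dose, with 1618 and 733 probe sets at an unadjusted p under 0.05. The AMH 50 ng/mL array of pool 3 at 12 h, set apart, had a median log2 difference from its vehicle array of -1.78 over the 39 genes, with 35 below 0, against -0.78 over all genes. Its values had both signs: Cdca8 had a signal of 2.75, against 648 with vehicle, and Cdc20 had 11, against 442, while Kif20a had 396, against 250, and Kif23 had 322, against 129.

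The 39 genes varied together across arrays. After the mean of each time was subtracted, the Pearson correlation of a gene with the mean of the other 38 had a median of 0.910 over the 17 arrays, against 0.792 for the other mitosis genes with the mean of all 39, 0.569 for the DNA replication genes and 0.152 for all other genes tested. These are descriptions, since arrays share pools and the 2 arrays of pool 3 at 12 h lie far out. The members most alike to the rest were Prc1 (0.987), Bub1 (0.972) and Tpx2 (0.971). Cdk1 was lowest, with -0.048, and the next were Bub1b (0.714) and Mad2l1 (0.715). The value of Cdk1 rests on pool 3 of 12 h: it was 0.501 over the 15 arrays without that pool and 0.608 over the 9 arrays of 24 h. The median of the 39 was 0.830 and 0.869 over these arrays, where Smc4 was lowest, with 0.125 and 0.277. Outside the list, the 5 genes most alike were Esco2 (0.981), an acetyltransferase of cohesin, Cep55 (0.979), which acts in abscission, Shcbp1 (0.967), Cdca3 (0.965) and Cdca5 (0.965), which encodes the cohesin protector sororin.

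The mean of the list also varied with the mean of the 17 oocyte markers, with a correlation of 0.905 over the 17 arrays, 0.899 over the 15 arrays without pool 3 of 12 h and 0.903 over the 9 arrays of 24 h. With the mean of the granulosa markers it was 0.670 over the 17 arrays. That value was not computed without pool 3 of 12 h. The vehicle and 200 ng/mL arrays of that pool had the lowest granulosa means of the 17, 8.07 and 7.64 in log2 units. Correlations with the other marker lists were not computed. The genes closest to the oocyte markers were Kif4 (0.966), Ttk (0.952) and Ncapg (0.930), and 22 of the 39 were above 0.8. At the other end were Ncaph (0.704), Aurkb (0.684), Cdc25c (0.655) and Cdk1 (0.026). Arrays share pools, and what these correlations rest on was not tested. Members with TTTGAA in the promoter window had a median time difference of -0.86 over 26 genes, and the 7 tested members whose window lacked it had -0.85. The same medians were -0.34 and -0.36 for 50 ng/mL at 24 h, -0.20 and -0.14 for 200 ng/mL at 24 h, and -0.26 and -0.45 for 200 ng/mL at 12 h.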

How the data were processed

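RNA of cultured mouse follicles was measured on 18 Affymetrix arrays. The intensity values are MAS5 signals on a linear scale, deposited by the authors and made with MAS5 per the submitters' processing notes (its version is not given in the sources used here). On the values, the 2% trimmed mean is 150 on every array. The arrays hold 45101 probe sets, 64 of them controls that were left out; the array annotation gave 34945 of the others a single symbol, 932 several and 9160 none. Values were taken as log2(signal + 16), and limma 3.58.1 (R 4.3.3) was run on the brighter part, 22518 probe sets with a mean over the 50th percentile (moderated test with an intensity trend, two-sided, Benjamini-Hochberg over all probe sets, threshold 0.05). A fold change on this scale understates that of dim genes. Dose comparisons used 17 arrays with the pool as a fixed block (7 residual degrees of freedom), and the time comparison used the 6 vehicle arrays without a block (4). The block rests on the labels, which state that the cultures of a pool share its follicles. Deviations from the group means correlated at 0.067 to 0.497 between same-pool arrays. Vehicle arrays of the same number at both times, which come from separate pools, correlated at 0.318, 0.261 and 0.207. Arrays of unlike number were not compared, so these correlations do not show an effect of the pool. Groups came from sample titles; the descriptions of the 12 h AMH samples give another time. Each gene took its brightest probe set. Values of every array were given for the 2 members with the largest difference of one sign in every pool (for time, with groups that do not overlap) in each comparison, and for the brightest member of each role; other members named with values were chosen after these were seen. The members and lists were chosen with earlier results of these data known. On simulated data with 22518 probe sets, the fit found 57% of the probe sets given a log2 change of 1 for 50 ng/mL at 24 h. It found 63% for 200 ng/mL at 12 h and 22% for time. The simulated noise was normal and independent between probe sets, with no pool effect and no outlying array. The real arrays differ in this, so these shares may not hold for them. Alternatives were other pseudocounts, filters, scalings, blocks and weights, and each pool left out.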

Additional observations from a re-analysis of the deposited data

Results flagged for a closer look

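Plk1, the polo kinase, had log2 differences between 50 ng/mL of AMH and vehicle of -0.02, -0.45 and -0.27 in the 3 pools of 24 h, against 0.051 and 0.36 in the 2 pools of 12 h. Every pool of 24 h was below 0 and both pools of 12 h were above it. The fitted differences were both below 0, with -0.24 (SE 0.29) at 24 h and -0.06 (SE 0.34) at 12 h. The fitted difference of these differences, 24 h minus 12 h, was -0.19 (SE 0.45, limma unadjusted p = 0.685, adjusted p = 0.999), so it did not pass the test.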

How the results depend on the processing

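Of the medians and counts recomputed under the alternatives, 352 values stayed within the spread or within 1.5 times and 49 moved. Of the single genes, 180 kept their side, 8 passed the threshold newly and 1 turned. Part of this tally was fixed beforehand, so it does not measure robustness. Leaving out a pool of one time cannot alter the AMH differences of the other time, and the intensity trend does not enter a log2 difference. For time, limma called 292 probe sets and 1 mitosis gene. The probe sets called were 156 with a pseudocount of 1, 60 without a filter, 132 with the filter at the 75th percentile, 602 with array weights, 642 with the replicate block and 680 with all 17 arrays in the fit, and 0 to 555 with 1 vehicle array left out. The mitosis genes called were 0 with a pseudocount of 1, without a filter or without the intensity trend, 2 with quantile normalization, the 75th percentile (Kif20a and Ube2c in both) or all 17 arrays (Cdk1 and Smc2, not Ube2c), 4 with median centring, 8 with the replicate block, 11 with array weights and 0 to 17 with 1 vehicle array left out (17 without that of pool 3 at 12 h). Cdc25c passed with median centring (-1.49), array weights (-1.34), the block (-1.39) and without that array (-1.62), and Cdc20 with the block (-1.38). For 50 ng/mL at 24 h, array weights gave 294 probe sets and 9 mitosis genes, namely Cenpf (-0.86), Espl1, Kif11, Kif23, Kif4, Mki67, Ncapg (-0.76), Prc1 and Tpx2, and the 9 arrays of 24 h alone gave 1 probe set. Array weights gave 4 probe sets for 200 ng/mL at 24 h, and 106 probe sets and 2 mitosis genes, Ncapg (0.69) and Bub1b, for 200 against 50 ng/mL. For 50 ng/mL at 12 h the list median, -0.35, became -0.56 with all 18 arrays, 0.14 without the pool block, -0.38 and -0.28 with pseudocounts of 1 and 50, -0.27 with quantile normalization, -0.20 with median centring, -0.22 at the 75th percentile, -0.14 with array weights, -0.25 over all tested probe sets and -0.42 to -0.13 with a pool left out; Cenpf turned to 0.074 without the block. Its change with time, -0.075, became 0.23 with all 18 arrays, -0.57 without the block and -0.41 with array weights. With a pool left out, probe sets called were 0 to 4 for 50 ng/mL and 0 to 226 for 200 ng/mL at 12 h, and 0 to 3 for the change of the 50 ng/mL difference with time. The correlations without pool 3 of 12 h and over 24 h alone were added after the data were seen. The causes were not tested. At the 75th percentile 25 of the 39 genes are left out, so dim members are limited by their signal over background.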
